A study of Caenorhabditis elegans with 2 samples.

Results

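Of the 4149 sites in the authors' conservative set for the tagged DNA-binding protein HMG-1.2, 479 (11.5%) have their summit in a later intron of a protein-coding gene. A summit is the base at which a peak is highest. It was placed in this class when it lay in no annotated exon, inside a protein-coding gene, in the first intron of no transcript, and outside the window running 500 bp upstream to 100 bp downstream of every protein-coding 5′ end. Positions, not signal, chose the peaks. The sequence that meets the same rule, called later-intron sequence here, adds up to 20.5 Mb, or 20.4% of the nuclear genome.

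The data come from chromatin immunoprecipitation and sequencing (ChIP-seq) of whole young adult Caenorhabditis elegans, 65 h old, whose larvae had been starved at the L1 stage after bleaching. All animals were of strain RW12210, which carries the allele st12210: a TY1, EGFP and 3xFLAG tag inserted by CRISPR at hmg-1.2 on chromosome III. There was 1 group of 2 biological replicates, and no untagged or input control was analysed here, so nothing below is set against a background track. The label description names an antibody to GFP, the antibody field names hmg-1.2. Whole animals mix all tissues, so which cells gave a peak cannot be told apart, and whether the replicates were separate cultures is not in the labels.

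HMG-box proteins of this type fold around the minor groove of DNA and bend it, with little preference for exact letters, and they sit on chromatin in every nucleus. In the worm, genetic work tied HMG-1.2 to Wnt signalling. Introns are not only spacers between exons: in the compact worm genome they hold enhancers, internal promoters and whole genes for small RNAs. Among those nested genes, tRNA genes carry the amino acids of translation, genes annotated as snRNA encode spliceosomal RNAs or the spliced leader that worms join to the front of many mRNAs, and snoRNA genes guide RNA modification. tRNA genes are read by RNA polymerase III from promoter boxes inside the gene.

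The peaks fall into a pair of sequence settings, shown here with their DNA because the later results turn on them. In the first setting a small RNA gene lies beside the summit. Each of the following 4 sequences (WBcel235, from RefSeq, given on the strand of the small RNA gene) starts upstream, has its summit at base 31, and runs into the gene, whose bases are in capitals. Of F01D5.12 the beginning of the gene, 75 bases, is shown. Each is among the 4 peaks of highest signal beside its kind of small RNA gene. The tRNA-Gly gene Y82E9BR.t1 lies in lelo-2 at chrIII:1424389-1424562 (+ strand). The snoRNA gene F01D5.12 lies in F01D5.10 at chrII:14018367-14018540 (− strand). The snoRNA gene ZK994.7 lies in pxn-1 at chrV:8500496-8500645 (+ strand). The microRNA gene mir-2214 lies in B0361.11 at chrIII:7278656-7278778 (+ strand).
Y82E9BR.t1 in lelo-2: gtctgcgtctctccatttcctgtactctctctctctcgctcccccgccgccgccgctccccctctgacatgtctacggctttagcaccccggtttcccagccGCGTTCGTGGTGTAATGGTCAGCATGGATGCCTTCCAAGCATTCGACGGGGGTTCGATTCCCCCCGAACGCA
F01D5.12 in F01D5.10: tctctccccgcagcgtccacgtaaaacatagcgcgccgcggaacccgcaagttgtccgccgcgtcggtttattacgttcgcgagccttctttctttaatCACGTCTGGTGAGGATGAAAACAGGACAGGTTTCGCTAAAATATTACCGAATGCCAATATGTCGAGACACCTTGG
ZK994.7 in pxn-1: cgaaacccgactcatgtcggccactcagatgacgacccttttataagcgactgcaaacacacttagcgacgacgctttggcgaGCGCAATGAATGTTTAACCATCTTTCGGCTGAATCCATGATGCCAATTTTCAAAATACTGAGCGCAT
mir-2214 in B0361.11: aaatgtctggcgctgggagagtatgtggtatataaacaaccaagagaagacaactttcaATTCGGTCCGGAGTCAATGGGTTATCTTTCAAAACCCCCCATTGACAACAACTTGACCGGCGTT

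In the second setting no small RNA gene is near. The following 9 windows, each reaching 50 bp either side of the summit, which is base 51, are given on the + strand. Capitals mark AGACGCAG or its reverse complement CTGCGTCT, and GAGAGA or TCTCTC. The windows of Y43F8B.2 (chrV:19529366-19529466), epg-9 (chrIV:2602119-2602219) and pes-4 (chrIII:1219123-1219223) are 3 of the 4 of highest signal in this setting, and the remaining one, in mod-5, is not printed. A further 4 windows are 2 each from cdh-12 (chrIII:1164280-1164380 and chrIII:1153092-1153192) and klp-20 (chrIII:224430-224530 and chrIII:227167-227267). Both genes have a long run of peaks. The windows of brc-1 (chrIII:3857199-3857299) and sre-45 (chrII:13521981-13522081) hold neither word. These 4 genes were picked with their values in view, and the set is not in proportion, since 39.7% of such windows hold AGACGCAG.
Y43F8B.2: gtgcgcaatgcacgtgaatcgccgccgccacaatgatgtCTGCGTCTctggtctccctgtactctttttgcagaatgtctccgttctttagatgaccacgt
epg-9: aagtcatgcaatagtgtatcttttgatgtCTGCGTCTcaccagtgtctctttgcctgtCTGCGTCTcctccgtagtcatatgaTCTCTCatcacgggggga
pes-4: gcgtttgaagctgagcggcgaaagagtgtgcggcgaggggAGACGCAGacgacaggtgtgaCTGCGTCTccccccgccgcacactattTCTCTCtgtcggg
cdh-12: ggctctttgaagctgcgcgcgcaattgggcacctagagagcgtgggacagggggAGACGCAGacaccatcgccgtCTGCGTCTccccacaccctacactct
cdh-12, second window: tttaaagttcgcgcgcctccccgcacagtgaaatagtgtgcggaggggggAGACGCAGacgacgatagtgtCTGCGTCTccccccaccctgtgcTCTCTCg
klp-20: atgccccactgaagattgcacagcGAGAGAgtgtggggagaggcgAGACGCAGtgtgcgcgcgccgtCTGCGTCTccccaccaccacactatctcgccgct
klp-20, second window: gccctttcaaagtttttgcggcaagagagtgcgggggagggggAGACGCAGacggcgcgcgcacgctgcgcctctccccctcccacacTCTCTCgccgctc
brc-1: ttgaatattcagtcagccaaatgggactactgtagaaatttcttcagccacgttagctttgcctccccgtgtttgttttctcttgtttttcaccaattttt
sre-45: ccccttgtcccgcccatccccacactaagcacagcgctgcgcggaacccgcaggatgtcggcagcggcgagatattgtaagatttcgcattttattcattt
In pes-4, in both cdh-12 windows and in the first klp-20 window, AGACGCAG is followed after a short gap by CTGCGTCT, so that the arms of the pair are reverse complements.

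Later introns held 23.4 peaks per Mb, against 30.1 in first-intron sequence and 41.4 over the nuclear genome. By signal the later-intron peaks were near the middle of the set but thinner at its top. The signal of a peak is the authors' own value, whose scale is unstated, and it serves here only within 1 list. Its median was 242 over the later-intron peaks (quartiles 152 and 404, lowest 4.35, highest 4295), against 255 over 286 first-intron peaks and 240 over all conservative peaks. Of the 300 peaks of highest signal, 21 (7%) lay in later introns, against 11.5% of the whole set. In 442 of the 469 later-intron peaks that are listed by both replicates, the conservative signal was within 10% of the sum of the replicates' own signals. Only 11 later-intron peaks had a signal under 50.

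Most of the peaks were found in both replicates. Of the 479, 351 (73.3%) overlapped a thresholded peak of replicate 1 and one of replicate 2, while 26 overlapped one in replicate 1 only, 78 in replicate 2 only and 24 in neither. The share in both was 65.4% for first-intron peaks and 63.6% for all conservative peaks. Among the 131 later-intron peaks with a small RNA gene within 200 bp it was 90.8%, and among the other 348 it was 66.7%. Replicate 1's own thresholded list had 437 later-intron summits among 3340 peaks (13.1%), and replicate 2's had 534 among 5333 (10%). Peaks are not replicates of a condition and no chance test was run over them, so differences between peak classes below are descriptions, with values of the replicates' own lists beside some of them. Read totals are not in the lists, and the libraries' depth is unknown.

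**Figure D1:**
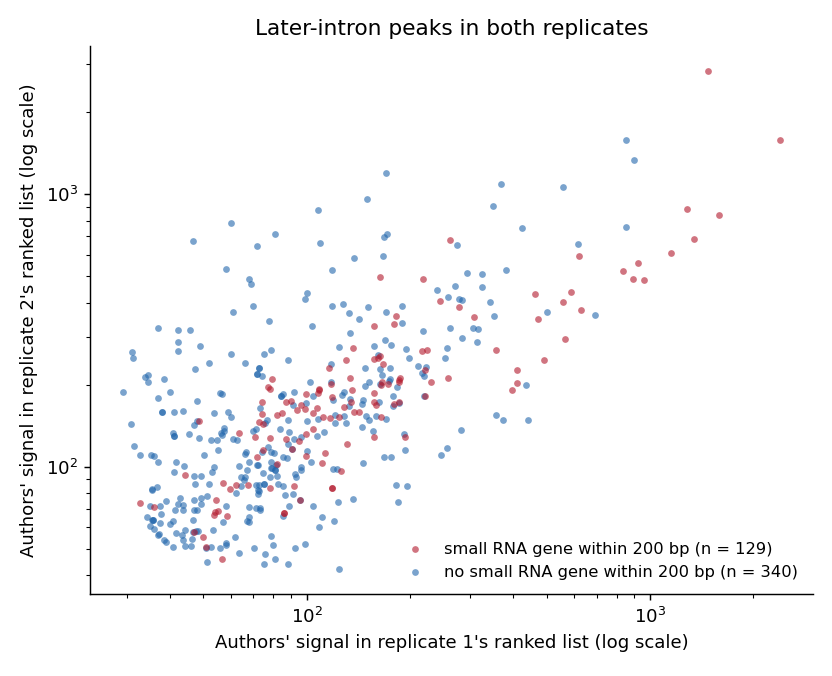
Signal of each later-intron peak in replicate 1's ranked list (x axis) and replicate 2's (y axis), both in the authors' units on log scales, for peaks with a small RNA gene within 200 bp (red, n = 129) and without one (blue, n = 340). The red points form a narrower band (Spearman rho 0.845) than the blue ones (rho 0.50), which include peaks high in replicate 2 and low in replicate 1.

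The plot of replicate signals gives the same picture peak by peak. Spearman's rho over the 469 peaks listed by both replicates was 0.60. It is given as a description across peaks, which share the libraries. It was 0.845 for the 129 beside a small RNA gene and 0.50 for the 340 others, with 0.563 over all conservative peaks. Summits lay close together across the lists: 415 of 479 (86.6%) had a ranked summit within 50 bp in both replicates, against 85.3% of first-intron peaks and 81.8% of all conservative peaks. The conservative set was itself thresholded on agreement between these replicates, so this is no independent check of position.

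Small RNA genes lay beside many of the summits. An annotated tRNA, snRNA, snoRNA or microRNA gene lay within 200 bp of 131 of the 479 summits (27.3%). The share was 11.5% (33) for first-intron summits and 14.8% for all conservative summits. It was higher, at 37.1% (195 of 526), for summits in exons, a class that takes in the small RNA genes themselves. Only 0.464% of later-intron sequence (95.1 kb) is that close to such a gene, which gives 1378 peaks per Mb there and 17.1 per Mb in the rest of later-intron sequence. The replicates' own lists had 26.5% and 21.0% of their later-intron summits there, against 15% and 9.87% of their first-intron summits. Leaving these 131 peaks out lowered the median signal of the later-intron peaks to 212, and the median signal of the 131 was 298.

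tRNA genes came first by number. They accounted for 85 peaks at 85 different genes, of 212 tRNA genes that have any later-intron sequence within 200 bp. The median summit lay 22 bp upstream of the tRNA gene's 5′ end (quartiles 32 and 11 bp upstream), and 84 of the 85 summits were upstream. The rule bars summits from the tRNA gene itself, which is an annotated exon, so only its flanks could be occupied. The genes encoded 20 kinds of tRNA, led by tRNA-Gly with 8 and tRNA-Lys with 7. Their direction was split evenly relative to the host gene, with 43 on the same strand and 42 on the opposite one. The median signal of these peaks was 275, and 77 of 85 overlapped both replicates. The lelo-2 peak beside the tRNA-Gly gene Y82E9BR.t1 stood far above the others, with a signal of 4295 in the conservative set, 1480 in replicate 1 and 2835 in replicate 2. The next highest was beside the tRNA-Arg gene F47G6.t1 in spe-15, a myosin of the sperm, with 1024 in the conservative set, 588 in replicate 1 and 439 in replicate 2. The letters GTTCGANTC, the core of the B box that recruits the polymerase III machinery, were in 36 of the 85 tRNA genes (42.4%) on the gene's strand, against 286 of all 612 (46.7%), with a median centre 55 bp inside. In those 36 genes the summit was a median of 79.5 bp from the box, and only 6 of the 479 summit windows, which reach 50 bp either side, held these letters on either strand (1.25%, against 0.199% of all tiles of the same length in later-intron sequence). Of these 6 windows, 4 were beside a small RNA gene. The tiles leave out annotated tRNA genes, into which windows can reach, so the shares are not like for like.

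snRNA and snoRNA genes were fewer, but their peaks were higher. The 18 peaks beside 17 snRNA genes had a median signal of 720, with a median summit 49 bp upstream, and all 18 overlapped both replicates. This kind includes spliced leader genes (named sls): 5 of them had 6 of the 18 peaks, with a median signal of 691, against 726 for the other 12. The 23 beside snoRNA genes had a median signal of 377 and a median summit 61 bp upstream, and 21 overlapped both replicates. Both medians are further upstream than the 22 bp of tRNA genes. snoRNA genes mostly ran with their host gene (19 on the same strand, 4 on the opposite), and snRNA genes in 11 of 18 cases. Of 48 snRNA genes with later-intron sequence nearby 17 had such a peak, and of 136 snoRNA genes 23 had one. The snoRNA gene F01D5.12 in F01D5.10 had the highest of these peaks, at 3943 in the conservative set, 2387 in replicate 1 and 1578 in replicate 2. ZK994.7 in pxn-1, the gene of the matrix enzyme peroxidasin, followed with 2411, and with 1589 and 841 in replicates 1 and 2. unc-31, which encodes the CAPS protein needed for release of dense-core vesicles, had 2 snRNA peaks. Beside ZK897.3 it had 2022 in the conservative set, 1348 in replicate 1 and 683 in replicate 2. Beside ZK897.2 it had 1375, with 893 and 487 in replicates 1 and 2.

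microRNA genes were seldom involved. There were 5 peaks beside 5 of 75 microRNA genes, with a median signal of 120, and 3 overlapped both replicates. The highest, beside mir-2214 in B0361.11, had a signal of 286 in the conservative set, 157 in replicate 1 and 129 in replicate 2. Here 3 summits lay upstream of the gene and 2 downstream, so the upstream side was not shared by this kind.

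**Figure D2:**
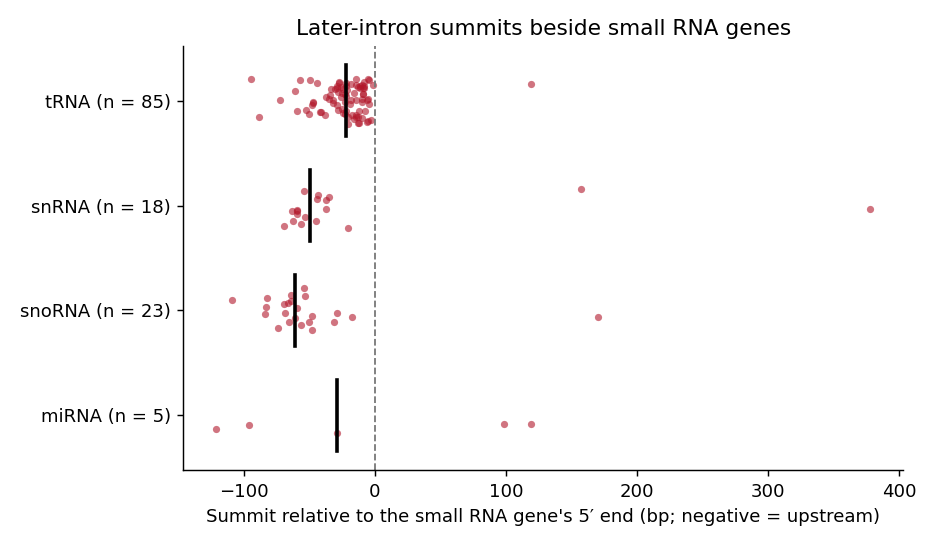
Position of the summit relative to the 5′ end of the nearest small RNA gene (x axis, bp, negative upstream) for the later-intron peaks with such a gene within 200 bp. Each point is a peak and the black bars are medians. In 84 of 85 tRNA, 16 of 18 snRNA and 22 of 23 snoRNA cases the summit is upstream, and the bar for tRNA genes (22 bp) is nearest to the gene.

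Many of these genes belong to families of near-identical copies, and how reads that match several places were handled is not given in the sources used here. Within 100 bp of their summits, 82 of the 131 peaks (62.6%) shared at least 30 identical bases with another later-intron peak. Of the 348 others, 76 (21.8%) did. Peaks that share such a stretch may share reads, and their values are uncertain in that respect.

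Away from small RNA genes, a repeated 8-letter word marked many summits. AGACGCAG, on either strand, was in 138 of the 348 summit windows (39.7%), against 3.05% of the 131 windows beside a small RNA gene and 0.604% of the tiles. This word was picked after the windows had been read, so its share is a description. It was as common in first-intron windows with no small RNA gene nearby (39.9% of 253) and less common in promoter windows (21.6%) and in all conservative windows (24.1%). In the replicates' own lists, the share among later-intron windows with no small RNA gene nearby was 35.8% and 39.6%. GAGAGA, a word that in the worm is known as the target of the zinc finger protein EOR-1, was in 42% of the 348 windows and 16.8% of the 131, against 3.60% of tiles, 51% of first-intron windows and 37.2% of all conservative windows. Over later-intron windows of all kinds the replicates' own lists had it in 30.2% and 41.4%, against 46.7% and 55.5% of their first-intron windows. Either word was in 187 of the 348 (53.7%), and 161 had neither. Either word was in 67.2% of first-intron windows with no small RNA gene nearby, 51.6% of intergenic windows and 45.4% of all conservative windows.

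An inverted pair, AGACGCAG followed within 60 bases by CTGCGTCT, was in 53 of the 348 regions of 201 bases around the summits (15.2%). The first-intron peaks with no small RNA gene nearby had it in 11.1% of cases, promoter peaks in 1.13% and all conservative peaks in 3.64%. The pair is rare: the nuclear genome holds 282 of them, 93 of which lie wholly in later-intron sequence. Of those 93, 53 (57%) lay inside a conservative peak, and 47 and 56 lay inside a peak of replicate 1's and replicate 2's own list. Their median length, both arms included, was 30 bp. The summit was a median of 9.50 bp from the middle of the pair. The pair is built from the word that was picked after these windows had been read, so its shares too are descriptions. The replicates' lists come from the same libraries as the conservative set and are no independent check.

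Peaks with the 8-letter word had higher signal and were more often in both libraries. Their median signal was 300 (quartiles 190 and 462), and 114 of 138 (82.6%) overlapped both replicates. The 49 peaks with GAGAGA alone had a median of 217, and 27 (55.1%) were in both. Of these 49, 89.8% overlapped a peak of replicate 2 and 57.1% one of replicate 1. The 161 with neither word had a median of 170, and 91 (56.5%) were in both. In replicate 1's list the median signals of the word, GAGAGA-alone and neither groups were 100, 65 and 71.8, and in replicate 2's 176, 158 and 97.9. The word peaks were highest in both, while the other groups changed order. Because the word was picked after these windows had been read, the comparison of the groups is a description too. The word peaks lay in introns with a median length of 844 bp, against 2380 bp for GAGAGA alone and 1588 bp for neither.

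The DNA under the peaks was rich in G and C for an intron. The windows averaged 51% ± 8.40 GC (SD over 479 windows), against 50.1% ± 8.36 in first-intron windows, 48.5% ± 8.04 in all conservative windows and 32.2% ± 8.74 in the tiles of later-intron sequence. The replicates' own lists gave 51.3% and 50%. Mean GC was 50.2% with a small RNA gene nearby and 51.3% without one. Windows can reach into exons and small RNA genes, which the tiles leave out, and this holds for the words and repeats below too. Runs of A are frequent in worm introns, and AAAAAA was in 56.7% of tiles but in 11.9% of the windows. ACAAT, the core that sequence-specific SOX-type HMG boxes bind, was in 12.3% of windows and 26.8% of tiles. CTTTGA, the core bound by the Wnt factor POP-1, was in 7.93% of windows and 7.16% of tiles. It was in 9.48% of windows with no small RNA gene nearby, 3.82% of those beside one and 5.21% of all conservative windows. Shares of words were not adjusted for base composition, which differs between windows and tiles, so like shares do not show a background level. TATAAA was in 13.0% of windows beside a small RNA gene, 4.31% of the others and 12.7% of tiles. Repeats annotated by soft-masking covered 21.1% of the windows' bases and 55.5% of the tiles'. Among windows with no small RNA gene nearby, they covered 29.9% where AGACGCAG was present, 14.9% with GAGAGA alone and 27.4% with neither.

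**Figure D3:**
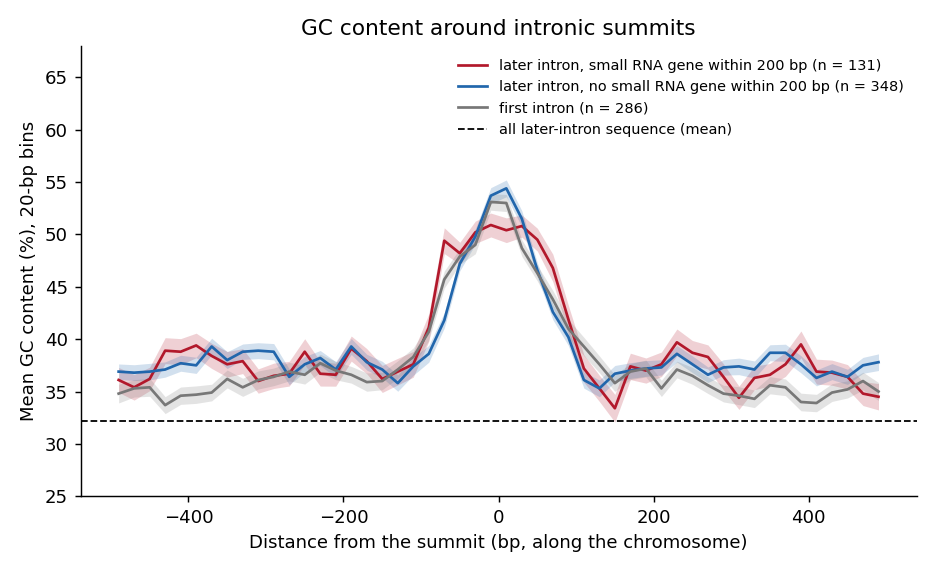
Mean GC content (y axis, %) in 20-bp bins around the summit (x axis, bp along the chromosome) for later-intron peaks beside a small RNA gene (red), other later-intron peaks (blue) and first-intron peaks (grey). Bands are the standard error over windows and the dashed line is the mean of all later-intron sequence (32.2%). The blue curve peaks at 54.4% at the summit, the red one has a flatter top at 50.9%, and all 3 fall to below 40% within about 120 bp.

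Away from small RNA genes, long introns held more peaks for their size. The median intron with a later-intron peak was 869 bp long, against 64 bp for the 88572 annotated later introns and 757 bp when later-intron sequence is counted base by base. With a small RNA gene nearby the median was 395 bp, without one 1300 bp. Over all later-intron peaks the density was 9.22 per Mb in introns of up to 250 bp, 36.2 between 250 and 500 bp, 19.3 and 19.2 in the next classes up to 2000 bp, and 36.6, 35.3 and 35.8 above, so the 250 to 500 bp class was level with the longest. Peaks without a small RNA gene came to 2.82 per Mb in introns of up to 250 bp. They came to 20.7 per Mb between 250 and 500 bp, 13.5 between 500 and 1000 bp, and 15 between 1000 and 2000 bp. Above 2000 bp the density was 34.2 per Mb (2000 to 4000 bp), 34.5 (4000 to 8000 bp) and 34.2 (over 8000 bp). In replicate 1's own list those last classes had 26, 29.2 and 29.3 per Mb, and in replicate 2's 46.7, 46.0 and 48.8, so both libraries had more peaks per Mb above 2000 bp than in any shorter class. Base composition moved with length: the tiles averaged 30.6% GC in introns of up to 250 bp and 35.3% in those over 8000 bp, and its part in the densities was not tested.

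The 250 to 500 bp class was set apart by its letters. Of its 69 peaks with no small RNA gene, 45 held AGACGCAG, and inverted pairs were densest there, at 9.58 per Mb against 3.85 per Mb between 2000 and 4000 bp. Without the peaks that hold the word, the density was 7.19 per Mb in this class and 7.74 and 9.85 per Mb in the following ones, and then 25, 22.3 and 22.8 per Mb above 2000 bp.

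**Figure D4:**
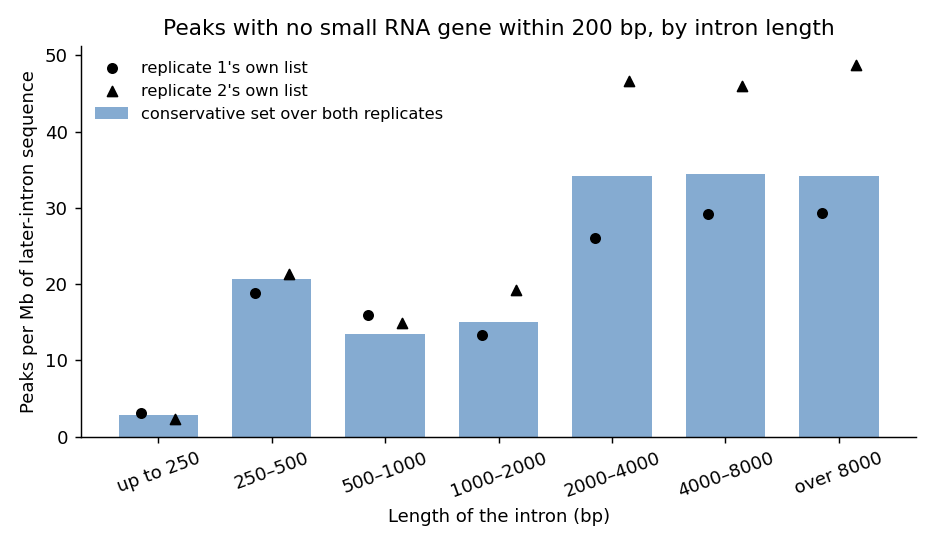
Later-intron peaks with no small RNA gene within 200 bp per Mb of later-intron sequence (y axis), by the length of the intron (x axis, bp). Bars are the conservative set, circles replicate 1's own list and triangles replicate 2's. The 3 classes above 2000 bp stand at about 34 per Mb, above the 13.5 to 20.7 per Mb between 250 and 2000 bp and the 2.82 per Mb below.

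Within introns, summits were more numerous in the middle parts than at the ends. Cutting each intron into 5 equal parts along the gene, 73 summits fell in the 5′ part, then 116, 138 and 105, and 47 in the 3′ part next to the downstream exon. These counts are not set against how much later-intron sequence each part holds. Introns number 2 held 94 peaks, numbers 3 and 4 held 72 each, number 5 held 60, and later ones 181, up to number 31. The last intron of the transcript held 84. The nearest protein-coding 5′ end was a median of 1885 bp away, against 852 bp for first-intron peaks, and 229 of the 479 summits were over 2000 bp from any. For 361 summits that nearest end belonged to the host gene.

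The 6 chromosomes were not alike. Chromosome III had 32.1 later-intron peaks per Mb of later-intron sequence, chromosome II 27.7 and chromosome IV 26.4. Chromosome V had 19.7, chromosome I 18.8 and the X chromosome 16.8. Of the 54 peaks on X, 27 were beside a small RNA gene, and X had the highest density of those (8.41 per Mb, against 4.01 to 6.92 on the autosomes). Small RNA genes were not counted by chromosome, so this is a density over later-intron sequence and not a rate per gene. Without the peaks beside small RNA genes X had 8.41 per Mb and the autosomes 13.2 to 25.7. The word AGACGCAG was in 51 of the 89 peaks of chromosome III with no small RNA gene, in 26 of the 47 on V and in 2 of the 27 on X. Leaving out the peaks that hold the word, chromosome III had 11.0 per Mb with no small RNA gene. Chromosomes I, II and IV then had 11.8, 12.5 and 12.8, X had 7.79, and chromosome V was lowest with 5.91. Of the 93 inverted pairs 43 lie in later introns of chromosome III and none on X.

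The replicates did not rank the chromosomes alike. Replicate 2, which has the longer list, had more later-intron peaks per Mb on each autosome (20.8 to 35.8, against 16.3 to 28.9 in replicate 1). On X it had fewer: 16.5 per Mb, against 21.2 in replicate 1. Beside small RNA genes, X was highest in replicate 1 (8.73 per Mb) but not in replicate 2, where it had 6.23 and chromosome V 6.47. With no small RNA gene nearby, X had 12.5 per Mb in replicate 1 and 10.3 in replicate 2. X was the lowest chromosome in replicate 2, while in replicate 1 chromosome V (11.8 per Mb) was lower than X.

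**Figure D5:**
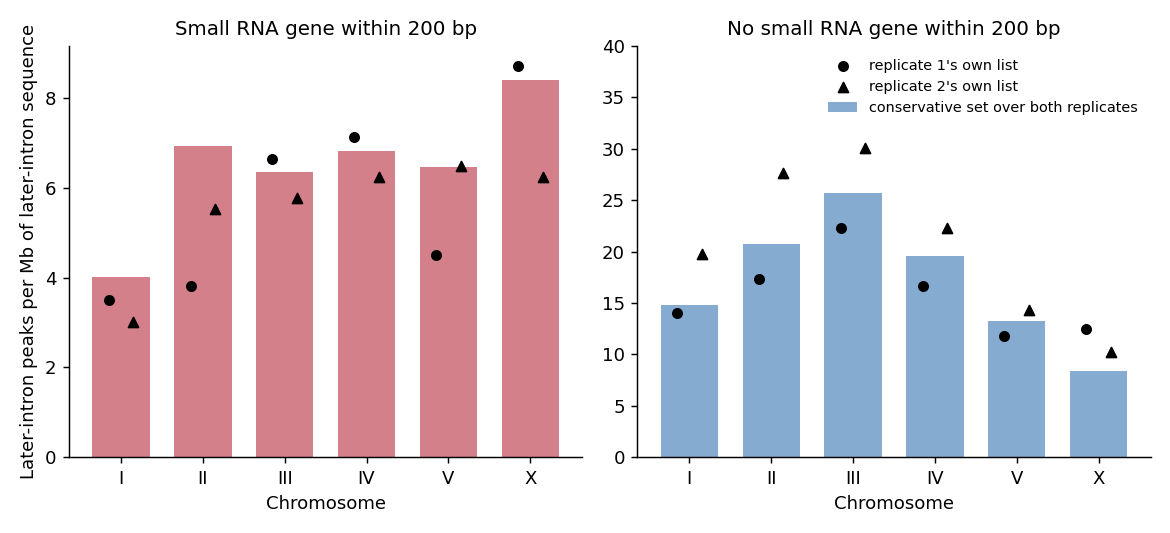
Later-intron peaks per Mb of later-intron sequence (y axes, which differ in scale) by chromosome (x axis), beside a small RNA gene (left) and elsewhere (right). Bars are the conservative set, circles replicate 1's own list and triangles replicate 2's. On the right chromosome III is highest in all 3 lists (25.7, 22.3 and 30.1 per Mb).

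Altogether 382 protein-coding genes hosted the peaks. Among 16399 genes that have any later-intron sequence this is 2.33%, the background for the gene groups. Most hosts (319) had 1 peak, 42 had 2 and 21 had 3 or more. Summits were counted, and 4 of them, in ppfr-1 and miz-1, share 2 intervals, so those pairs rest on the same replicate peaks. The replicates' own lists had 359 and 429 hosts. Hosts were more frequent among genes with more later-intron sequence: 0.149% of genes with up to 250 bp of it were hosts, 1.07% with 250 to 1000 bp, 4.07% with 1000 to 4000 bp and 12.1% with more. The density per Mb in those classes was 12.5, 20.7, 24.5 and 23.9.

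The longest runs were in cdh-12, a cadherin gene, and klp-20, which encodes a motor subunit of kinesin-II, the carrier of ciliary cargo. cdh-12 had 9 peaks over 25599 bp. All 9 held AGACGCAG, 6 had the inverted pair, and 8 overlapped both replicates. Their signals in replicate 1 had a lowest, median and highest value of 41.2, 76.6 and 192, and in replicate 2 of 69.6, 98 and 206. klp-20 had 6 peaks over 5340 bp, all 6 with the word, 5 with the pair and all in both replicates. Their lowest, median and highest values were 71.7, 194 and 305 in replicate 1, and 101.2, 194 and 323 in replicate 2. The klp-20 gene has 6 inverted pairs in all, cdh-12 has 12. Soft-masked repeats covered 39.6% and 60.4% of the bases in the klp-20 windows printed above, and 41.6% and 42.6% in the cdh-12 windows. The cadherin gene cdh-1 was similar, with 4 peaks, all 4 with the pair, and Y77E11A.12 had 3 of 3. Runs also occurred without the word: the 4 peaks of dkf-1, a protein kinase D gene, had none, with signals of 199 to 407 in the conservative set. kcnl-1, for a calcium-activated potassium channel, had 4 peaks, 2 of them with the word. mec-12, the alpha-tubulin of touch receptor neurons, had 4, of which 3 held it. pgp-9, an ABC transporter, and ppfr-1, a regulatory subunit of protein phosphatase 4, had 4 summits each, those of ppfr-1 in 3 intervals. In pxn-1 and piki-1, a class II phosphoinositide 3-kinase, all 3 peaks lay beside small RNA genes.

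Among the highest peaks without a small RNA gene, Y43F8B.2 had a signal of 2405 in the conservative set, 853 in replicate 1 and 1577 in replicate 2, in an intron of 9619 bp. mod-5, the serotonin reuptake transporter, had 2218, with 900 and 1338 in replicates 1 and 2. epg-9, an autophagy gene, had 1613, with 558 and 1065. pes-4 had 1597, with 852 and 759. pbrm-1, the polybromo subunit of a SWI/SNF remodeller, had 1390, and here the replicates lay far apart, at 170 and 1200. brc-1, the worm BRCA1, had 1258, with 350 and 907. In these 6 peaks replicate 2 gave the higher value except in pes-4, but values from 2 lists need not be on 1 scale.

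Genes of neurons and cell contact held several of the peaks. The list of synaptic release genes had a peak in 5 of 38 members (13.2%), and 5 of its 7 peaks were beside a small RNA gene. They included unc-31, cat-1 (the vesicular monoamine transporter, signal 655, 4 bp from a tRNA gene), unc-41 and unc-104, a kinesin that carries synaptic vesicles (347). The median member of this list has 2772 bp of later-intron sequence, against 577 bp over all genes. The density of the list was 44.2 peaks per Mb, against 23.4 over all genes. The adhesion and axon guidance list had 7 hosts of 105 (6.67%), and its median member has 2327 bp of later-intron sequence. It had 18 peaks (41.7 per Mb, against 23.4 over all genes), 17 of them away from small RNA genes. Of the 18, 13 were in cdh-12 and cdh-1. hmr-1, the classical cadherin, had 563, with 67.8 in replicate 1 and 488 in replicate 2. lat-2, a latrophilin, had 298. Ion channels had 5 hosts of 147 (3.40%), among them twk-45 (344), twk-22 (206) and unc-58 (195, beside a small RNA gene) besides kcnl-1. Their median member has 1733 bp of later-intron sequence, and their density, 18.6 peaks per Mb, was below the 23.4 over all genes. Neurotransmitter receptors had 4 of 128 (3.12%), with a median of 1732 bp and 19.5 peaks per Mb, also below 23.4. The glutamate receptor glr-2 had 858, beside the spliced leader gene sls-2.16, and acr-18 had 417, beside a tRNA gene. gbb-1 had 286 and lgc-40 had 251.

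Signalling and regulatory lists had between 1 and 6 hosts each. The Wnt list had 2 hosts of 30 (6.67%), against 2.33% over all genes. They were mom-1, needed to make active Wnt (594, with 443 and 148 in replicates 1 and 2), and the kinase lit-1 (102, in replicate 2's thresholded list but not replicate 1's). The median member of the Wnt list has 1408 bp of later-intron sequence, against 577 bp over all genes. Its density was 31.0 peaks per Mb, against 23.4 over all genes. Insulin, Ras and TGF-beta genes had 3 of 56 (5.36%), with a median of 1783 bp and 26.7 peaks per Mb. These hosts were daf-16, the FOXO factor (512, with 119 and 390), the kinase pdk-1 (281) and daf-10. daf-10 works in cilia, and the higher of its 2 peaks (190) lay beside a small RNA gene. Nuclear hormone receptors had 6 of 270 (2.22%), led by nhr-119 (347) and nhr-76 (330). Homeobox genes had 1 of 92 (1.09%), ceh-60 (120, in replicate 1's thresholded list but not replicate 2's). bHLH and bZIP genes had 1 of 56 (1.79%), crh-2 (457). Chromatin modifiers had 2 of 100, pbrm-1 and the H3K79 methyltransferase gene dot-1.1 (299).

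The remaining lists ranged more widely. Muscle genes had 3 of 54 (5.56%), against 2.33% over all genes, with a median of 1778 bp of later-intron sequence, against 577 bp. Their density was 16.5 peaks per Mb, below the 23.4 over all genes. The hosts were dystrophin (dys-1, 355), the spectrin unc-70 (286) and lim-8 (275). The unc-70 and lim-8 peaks lay beside small RNA genes, and the dys-1 peak was in replicate 2's thresholded list but not replicate 1's. The collagen list had 3 of 73 (4.11%), and all 4 of its peaks lay beside small RNA genes: col-85 (694) and col-99 (418) are collagens, while rol-3 (2158), which the name pattern also takes, encodes a receptor tyrosine kinase. Chemoreceptors had 16 of 1284 (1.25%) and 27.9 peaks per Mb, with sre-45 highest (1007). That peak lay beside a snoRNA gene and is not the sre-45 window printed above. Of the 18 chemoreceptor peaks, 12 had no small RNA gene nearby. Cytosolic ribosomal protein genes had no host among 43, with 4.64 kb of later-intron sequence between them, and germ granule genes none among 65, with 64.2 kb. At the density of all later introns such small stretches would hold few peaks, so a count of 0 there says little. The replicates' own lists gave other host counts for several lists, for example 7 and 7 ion channels, 11 and 14 chemoreceptors, 0 and 1 germ granule genes and 6 and 5 synaptic genes in replicates 1 and 2. No test was run on any list.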

How the data were processed

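The authors deposited peak lists on ce11, the build named in the labels, whose chromosome lengths match the WBcel235 genome and Ensembl release 115 annotation used here. Of 8 deposited lists, 6 were used: the authors' 2 thresholded sets over both replicates, the ranked list behind the conservative set, and lists of each replicate. Neither aligner nor peak caller is given in the sources used here. Each peak has a deposited start, end and summit offset. It has a score from the irreproducible discovery rate (IDR), capped at 1000 and at least 830 in the conservative set, per the values in the deposited file. It also has the authors' signal, which is never negative, with no stated scale. Depth is unknown and no interval that needs it is given.

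Summits were placed by masks built from the annotation (Python 3.11.15, numpy 2.4.6, pandas 2.3.3, scipy 1.17.1), checked on simulated positions. Overlap with a replicate needed 1 bp. Letters were read on both strands in windows reaching 50 bp either side of the summit and set beside all whole tiles of the same length in later-intron sequence. The named genes are the 20 highest peaks found in both replicates, up to 4 hosts of each of 15 lists, hosts with 3 or more peaks and up to 4 examples of each small RNA kind. Not all are described. The peaks, the lists and the words searched were chosen with earlier results of these data known, and genes were put in lists by their names. Alternatives changed the peak set, promoter window, summit, exons, overlap, distance and sequence window. A sequence beside an snRNA gene is not reported here.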

Additional observations from a re-analysis of the deposited data

How the results depend on the processing

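Of 76 alternative values over 8 results, 50 moved by less than the spread (SD) between the replicates' own lists, including all 9 for the later-intron share of peaks (10% to 13.5%). The values that moved were these. Using the authors' other thresholded set, 20.1% of later-intron peaks were near a small RNA gene, 53% were in both replicates, 3.21% of genes were hosts, the median signal was 179 and mean GC 49.9%. In the higher-signal part of the conservative set these were 35.8%, 93.8%, 1.26%, 404 and 52.4%, with a median of 2050 bp to the nearest 5′ end. Barring only exons of protein-coding genes gave 35.2% near a small RNA gene and 2.64% hosts. Narrow and wide promoter windows gave 1729 and 2104 bp to the nearest 5′ end. Windows of 25 and 100 bp either side gave 52.5% and 47% GC. Leaving out peaks near small RNA genes, an alternative chosen after seeing the data like the return of ranked peaks, gave a median signal of 212 and a host intron of 1300 bp. The causes were not tested.

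Leaving out 1 replicate, and so using the other's own list, gave 21.0% to 26.5% near a small RNA gene, 62.7% to 77.6% in both replicates, 2.19% to 2.62% hosts, a median signal of 96.4 to 135, 1741 to 1916 bp to the nearest 5′ end, 50% to 51.3% GC and introns of 789 to 1088 bp. A replicate's own peaks overlap themselves, so for them the share in both is the share found by the other replicate. No paired analysis was possible because there is 1 group. The unknown depth limits the counts of peaks per replicate, and an absent peak is not shown to be unbound.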

Other observations

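The ranked list behind the conservative set holds 4173 peaks whose score passes the same limit. Of these, 24 are not in the conservative list, and 1 of them has its summit in a later intron, which leaves the later-intron share at 11.5% when they are put back.

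Of replicate 1's own later-intron peaks, 82.4% (360 of 437) overlap a conservative peak, and of replicate 2's, 76.4% (408 of 534) do. In both lists the median later-intron peak stands just above the middle by signal, at percentile 51.9 in replicate 1 and 51.5 in replicate 2.

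The sequence printed for the lelo-2 peak holds CTGCGTCT near its summit as well as a tRNA gene downstream. It is 1 of 4 windows beside a small RNA gene with that word, an observation made after the sequences were read.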
